A study of Mus musculus with 8 samples.

Results

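The N-glycan processing enzymes and galectins described here were 10 genes of mouse T cells: Man1a, Man1a2, Mgat1, Man2a1, Mgat2, Mgat4a, Mgat5, St6gal1, Lgals1 and Lgals3. They were taken by name, with no rule on their values but with earlier results of these data known. They come from the 22180 genes that the array annotation names by a probe set of their own, and each had exactly 1 such probe set. A further probe set names St6gal1 together with another gene and was left out. CD3 T cells of C57BL/6J mice, isolated by negative selection out of spleens and lymph nodes, were measured on 8 arrays, 1 for each of 8 groups. The groups were cells given concanavalin A (ConA) on plates coated with poly-L-lysine (ConA+PLL), cells given ConA without the coating (ConA), cells on the coating alone (PLL) and naive cells. The treatments lasted 3 h, and the treated groups were measured at 3 h and, after a wash and further culture, at 24 h. Naive cells were measured once in steady state, counted here as 0 h, and once after 24 h, so that no naive array matches the 3 h cultures. The labels give neither the age of the mice nor how many gave cells to an array, and CD4 and CD8 cells were not separated. Poly-L-lysine is a polycation that holds cells to plastic. The question of the series was how T cells stimulated while held on a surface differ from T cells given the stimulus in suspension.

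Proteins that pass through the endoplasmic reticulum receive a mannose-rich N-glycan, which is then rebuilt in the Golgi in a set order. Man1a and Man1a2 encode mannosidases that trim the outer mannoses. Mgat1 adds the N-acetylglucosamine that every hybrid and complex glycan needs, the mannosidase Man2a1 then removes further mannoses, and Mgat2 starts the other arm of a complex glycan. Mgat4a and Mgat5 add further branches, and St6gal1 caps branches with sialic acid. Galectin-1 (Lgals1) and galectin-3 (Lgals3) are lectins that bind galactose on such branches, and the sialic acid that St6gal1 adds limits binding by galectin-1. In mice, T cells that lack Mgat5 are activated more easily. ConA is itself a lectin: it binds mannose of N-glycans, so the products of these enzymes are part of what the stimulus sees.

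Mgat1, Man2a1 and Mgat5 were the 3 enzymes whose levels spanned at least 1 log2 unit over the arrays. Mgat1 and Man2a1 had their highest level in ConA+PLL cells of 24 h, as did Man1a, St6gal1 and Lgals1. Mgat5 had its lowest level there. The start regions of Mgat1, Man2a1 and Mgat5 are shown. Each is the RefSeq promoter window of assembly GRCm38.p6, 250 bases before and 50 bases after a transcription start, 5′ to 3′ on the gene's strand, and capitals mark motif matches on either strand.
Man2a1, chr17:64601399-64601698, plus strand: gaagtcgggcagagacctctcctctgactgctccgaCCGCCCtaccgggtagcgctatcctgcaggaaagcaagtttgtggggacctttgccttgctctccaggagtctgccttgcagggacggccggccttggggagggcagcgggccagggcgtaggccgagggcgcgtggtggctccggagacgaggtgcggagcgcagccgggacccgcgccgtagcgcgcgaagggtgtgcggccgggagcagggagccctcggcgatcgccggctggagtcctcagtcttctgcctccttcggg
Mgat1, chr11:49243941-49244240, plus strand, the most upstream of 3 annotated starts: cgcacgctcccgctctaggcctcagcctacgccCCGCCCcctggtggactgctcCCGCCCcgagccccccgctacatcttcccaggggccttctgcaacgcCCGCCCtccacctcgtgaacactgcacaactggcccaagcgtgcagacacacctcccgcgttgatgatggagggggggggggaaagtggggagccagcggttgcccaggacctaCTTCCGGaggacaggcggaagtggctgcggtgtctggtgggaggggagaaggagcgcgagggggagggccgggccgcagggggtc
Mgat5, chr1:127204736-127205035, plus strand: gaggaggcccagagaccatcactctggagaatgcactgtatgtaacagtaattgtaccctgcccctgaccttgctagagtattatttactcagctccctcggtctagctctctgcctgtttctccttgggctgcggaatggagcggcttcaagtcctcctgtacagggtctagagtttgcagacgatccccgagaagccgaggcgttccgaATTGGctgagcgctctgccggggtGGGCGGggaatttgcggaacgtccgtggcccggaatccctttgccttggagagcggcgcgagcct
The Man2a1 window held 1 GC box (GGGCGG). The Mgat1 window held 3 GC boxes and 1 ETS motif (CCGGAAG), and the Mgat5 window held 1 GC box and 1 CCAAT box (CCAAT). A GC box was in 9 of the 13 windows of the members and in 35.7% of the 32851 windows of the reference table. The ETS motif was in 1 of the 13 windows and in 8.86% of all windows, and the CCAAT box was in 8 of the 13 and in 37.4% of all. The AP-1 motif TGANTCA was in 2 of the 13 windows, of Mgat4a and St6gal1, and in 7.81% of all. No window of a member held the E-box CACGTG (7.15% of all windows), the CRE motif TGACGTCA (1.79%) or TATAAA (13.6%). A CCAAT box overlapped an AP-1 motif in 1 window of St6gal1. Windows were found for 8 of the 10 genes, not for Lgals1 and Man1a2. A match is a run of letters and no evidence that a factor binds there.

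All values are log2 expression levels, so that a difference of 1 is a 2-fold change. With 1 array for each group there is no replicate, no standard deviation and no p-value, and a difference between groups is a difference between 2 arrays. Each was therefore set against the same difference over the 13428 genes whose highest level reached the table's median of 3.62, and called where it was 2-fold or more. All 10 members were above 3.62 on every array. As a stricter mark, background was set at 4.10, the level that the highest values of 95% of the 1394 odorant and vomeronasal receptor genes stayed under. By that mark 9 members were above background on every array, and Lgals3 was below it, at 4.09, on the naive 24 h array. All 7 T cell markers measured, among them Cd3e, Cd3d and Cd3g for CD3 chains of the T cell receptor complex, were above that background on every array. Of the other cell types, 0 of 10 neutrophil markers passed it on any array. On the naive 0 h array it was passed by 1 of 9 B cell, 3 of 11 monocyte and macrophage and 3 of 8 dendritic cell markers. The same array had 5 of 9 NK cell markers and 1 of 4 erythroid markers, Car2, above it. Levels of different genes were not compared, because probe sets differ in brightness.

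Lgals1 stood apart among the 10 genes. At 24 h its level was 6.54 in ConA+PLL cells, 5.01 in ConA cells and 4.92 in PLL cells, against 4.85 in naive 24 h cells. At 3 h the level was 5.0 in ConA+PLL cells, 5.23 in ConA cells and 5.65 in PLL cells, against 5.29 in naive 0 h cells. The ConA+PLL array at 24 h was the highest of the 8, and the other 7 lay between 4.85 and 5.65. ConA+PLL cells were thus 3.24-fold above naive cells, 2.89-fold above ConA cells and 3.08-fold above PLL cells at 24 h, differences of 1.70, 1.53 and 1.62 on the log2 scale. Among the 13428 genes, 30 had a larger difference against naive cells, 24 against ConA cells and 24 against PLL cells. Between 2 bulk arrays, more RNA per cell and more cells of a kind that expresses the gene cannot be told apart.

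Neither ConA nor PLL alone came near that level. ConA cells differed from naive cells by 0.17 and PLL cells from naive cells by 0.07 at 24 h. The difference that ConA made on the coating exceeded the difference it made without the coating by 1.46 on the log2 scale, and 41 of the 13428 genes had a larger value. At 3 h the same quantity was -0.58. On PLL alone the level was 0.36 above naive cells at 3 h, and ConA+PLL cells were 0.64 below PLL cells, so the order of these arrays at 3 h was not that at 24 h.

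Groups of marker genes were read on the same arrays of 24 h, and those of activation and division also on the earlier arrays. The summed linear level of 10 T cell activation genes was 1003 in ConA+PLL cells, 516 in ConA cells and 391 in PLL cells, against 424 in naive cells, and 6 of the 10 were at least 1.5-fold higher in ConA+PLL than in ConA cells. The activation sum was far higher at 3 h, at 9396 in ConA+PLL cells, 4452 in ConA cells and 1280 in PLL cells, against 1683 in naive 0 h cells. At 24 h the summed linear level of 9 genes of dividing cells was 609 in ConA+PLL cells, 244 in ConA cells and 223 in PLL cells, against 214 in naive cells, and 7 of the 9 were at least 2-fold higher in ConA+PLL than in ConA cells. All 9 were above background on the ConA+PLL array, 4 on the ConA array and 4 on the PLL array, against 2 on the naive array. At 3 h the sum for dividing cells was 320 in ConA+PLL cells, 308 in ConA cells and 280 in PLL cells. In naive 0 h cells it was 328, with 6 of the 9 above background. For 11 monocyte and macrophage markers the sum at 24 h was 788 in ConA+PLL cells, 634 in ConA cells and 524 in PLL cells, against 502 in naive cells, with 5 of the 11 above background on each treated array and 3 on the naive array. Ctss, the gene of cathepsin S, weighs most in that sum and was at 9.32 in ConA+PLL cells and 8.94 in ConA cells, against 8.53 in naive 24 h cells. Csf1r, Adgre1, Cd14, Itgam, Clec7a and Ly86 were below background on all 8 arrays. At 24 h Cybb was at 4.68 in ConA+PLL cells, 4.67 in ConA cells and 4.38 in PLL cells, against 3.72 in naive cells. Lyz2 was at 4.57, 4.51 and 4.65 in these treated groups, in that order, and below background in naive 24 h cells. Cd68 and Fcgr3 were above background on every array of 24 h. The sum of 9 B cell markers was 133 in ConA+PLL cells, 120 in ConA cells and 119 in PLL cells, against 113 in naive cells, and at most 2 of them were above background on these arrays. For 8 dendritic cell markers the sum was 164 in ConA+PLL cells, 146 in ConA cells and 157 in PLL cells, against 120 in naive cells, with 3 above background in ConA+PLL cells, 4 in ConA cells and 2 in PLL cells, against 3 in naive cells. Of these, H2-Ab1 was at 5.81 in ConA+PLL cells, 5.29 in ConA cells and 5.69 in PLL cells, against 4.26 in naive cells. It was the 1 gene of the dendritic list 2-fold higher than in naive cells in each of these groups. Itgax, Flt3, Xcr1 and Siglech of the same list were below background on all 8 arrays. The sum of 9 NK cell markers was 825 in ConA+PLL cells, 1083 in ConA cells and 1160 in PLL cells, against 1011 in naive cells, with 4 above background on each. Ncr1, Klrb1c, Gzma and Klre1 of the NK list were below background on all 8 arrays. Klrd1 weighs most in the NK sum, and the members of the list did not move together. Klrd1 was at 8.70 in ConA+PLL cells and 9.61 in ConA cells, against 9.51 in naive cells, while Eomes was at 6.39 in ConA+PLL cells and 5.53 in ConA cells, against 4.93 in naive cells. Nkg7 was at 7.75 in ConA+PLL cells and 6.92 in ConA cells, against 6.97 in naive cells. The part of activation, division or these cells in the Lgals1 level was not tested.

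Lgals3, the other galectin of the set, differed far less than Lgals1. Like Lgals1, it was lowest of all on the naive 24 h array and highest of the 24 h arrays in ConA+PLL cells. Its highest level of all was on the naive 0 h array. At 24 h it was at 4.59 in ConA+PLL cells, 4.30 in ConA cells and 4.49 in PLL cells, against 4.09 in naive cells. At 3 h it was at 4.25 in ConA+PLL cells, 4.43 in ConA cells and 4.58 in PLL cells, against 4.63 in naive 0 h cells. The whole range was 0.54, close to background, and the 0.50 by which ConA+PLL cells exceeded naive 24 h cells lay inside the middle 90% of all genes. PLL cells exceeded naive 24 h cells by 0.40, which was above the 95th percentile of that comparison, 0.37, and 3.83% of genes had a larger difference.

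**Figure D1:**
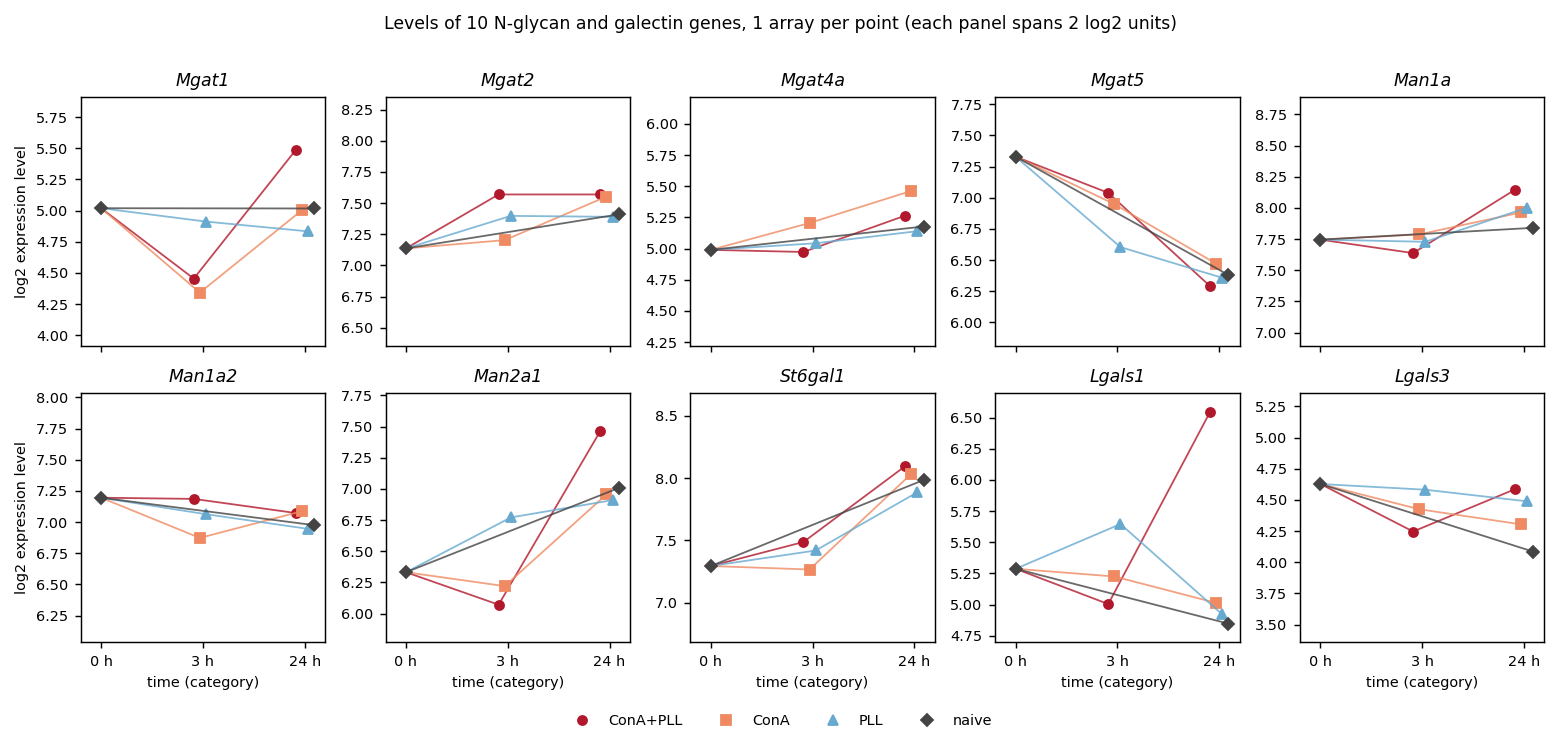
Log2 expression level (y axis, each panel spanning 2 log2 units) of the 10 genes at 0, 3 and 24 h (x axis, times as categories) in ConA+PLL, ConA, PLL and naive cells; each point is 1 array and lines only join arrays of a treatment to the shared 0 h array. The ConA+PLL point of Lgals1 at 24 h, at 6.54, lies above the other 7 arrays, which run from 4.85 to 5.65, while all 24 h points of Mgat5 lie below all earlier ones.

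The mannosidase genes Man1a and Man1a2, which act at the start of Golgi processing, varied little. Man1a was at 8.15 in ConA+PLL cells, 7.96 in ConA cells and 8.0 in PLL cells, against 7.84 in naive cells, at 24 h. At 3 h the values were 7.64 in ConA+PLL cells, 7.79 in ConA cells and 7.73 in PLL cells, against 7.75 in naive 0 h cells. ConA+PLL was thus the lowest array of 3 h and the highest of 24 h. Man1a2 was at 7.07 in ConA+PLL cells, 7.09 in ConA cells and 6.95 in PLL cells, against 6.98 in naive cells, at 24 h. Its 3 h values were 7.19 in ConA+PLL cells, 6.87 in ConA cells and 7.06 in PLL cells, against 7.20 in naive 0 h cells. Man1a thus had its 4 arrays of 24 h above its 4 earlier arrays by a gap of only 0.05, and Man1a2 had the smallest range of the set, 0.32.

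Mgat1, the enzyme that commits a glycan to the hybrid and complex forms, was low in the ConA-treated cells of 3 h. The level was 4.45 in ConA+PLL cells, 4.34 in ConA cells and 4.91 in PLL cells, against 5.02 in naive 0 h cells. Both arrays with ConA lay below both arrays without it, an order that Man2a1, Lgals1 and Lgals3 shared. The share of all genes with that order was not counted. For Mgat1 the differences from naive cells were 0.56 for ConA+PLL and 0.68 for ConA, or 1.48-fold and 1.60-fold. A lower difference was found for 6.99% of all genes in ConA+PLL cells and for 1.52% in ConA cells. These 2 comparisons share the naive array. Set against PLL cells, which were also in culture for 3 h, ConA+PLL cells were 0.46 lower. The order at 24 h was another one: 5.48 in ConA+PLL cells, 5.0 in ConA cells and 4.83 in PLL cells, against 5.02 in naive cells. ConA+PLL was then the highest array, 0.47 above naive cells, 0.48 above ConA cells and 0.65 above PLL cells, all under 2-fold.

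Man2a1 acts on the product of Mgat1. Like Mgat1, Man1a, St6gal1 and Lgals1, it had its highest level in ConA+PLL cells of 24 h. The median of the 13428 genes was also highest on that array, at 5.33. The share of all genes with their highest level there was not counted. Unlike Mgat1, Man2a1 was also higher in naive cells of 24 h than of 0 h, by 0.68. At 3 h it was at 6.07 in ConA+PLL cells, 6.22 in ConA cells and 6.77 in PLL cells, against 6.33 in naive 0 h cells. PLL alone was thus 0.44 above naive cells, and ConA+PLL cells were 0.70 below PLL cells, or 1.62-fold. At 24 h the values were 7.46 in ConA+PLL cells, 6.96 in ConA cells and 6.91 in PLL cells, against 7.01 in naive cells. The 3 other arrays of 24 h lay between 6.91 and 7.01, and ConA+PLL was 0.46 above naive, 0.51 above ConA and 0.55 above PLL cells.

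Mgat2, which opens the other arm, reached 7.57 in ConA+PLL cells at 3 h and again at 24 h. The remaining 3 h values were 7.20 in ConA cells and 7.40 in PLL cells, against 7.14 in naive 0 h cells. The remaining 24 h values were 7.55 in ConA cells and 7.39 in PLL cells, against 7.41 in naive cells. ConA+PLL cells were therefore 0.37 above ConA cells at 3 h and 0.02 above them at 24 h.

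The branching genes Mgat4a and Mgat5 behaved differently from each other. Mgat4a stayed between 4.97 and 5.46: at 24 h it was at 5.26 in ConA+PLL cells, 5.46 in ConA cells and 5.14 in PLL cells, against 5.18 in naive cells. At 3 h it was at 4.97 in ConA+PLL cells, 5.20 in ConA cells and 5.04 in PLL cells, against 4.99 in naive 0 h cells. Mgat5 was highest in steady state, at 7.33. At 3 h it was at 7.04 in ConA+PLL cells, 6.95 in ConA cells and 6.60 in PLL cells, all below that value. PLL cells were the lowest of these, 0.72 below the naive 0 h array or 1.65-fold, and 182 of the 13428 genes had a lower difference. At 24 h all groups were close together, at 6.29 in ConA+PLL cells, 6.47 in ConA cells and 6.36 in PLL cells, against 6.38 in naive cells. Naive cells of 24 h were 0.95 below naive cells of 0 h, or 1.93-fold, just short of the 2-fold line, with 236 genes lower still. The 24 h level of Mgat5 was thus low on all 4 arrays, naive cells included.

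St6gal1, which adds the sialic acid cap, also differed more between times than between treatments. At 24 h it was at 8.10 in ConA+PLL cells, 8.03 in ConA cells and 7.89 in PLL cells, against 7.98 in naive cells. At 3 h it was at 7.49 in ConA+PLL cells, 7.27 in ConA cells and 7.42 in PLL cells, against 7.30 in naive 0 h cells. The 4 arrays of 24 h spanned 0.21 and stood 0.40 clear of the 4 earlier arrays.

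In all, 4 of the 10 genes had 24 h levels that did not overlap the 0 h and 3 h levels: Man1a, Man2a1 and St6gal1 were higher on all 4 arrays of 24 h, and Mgat5 was lower. Levels separated in this way for 21.9% of all genes, 2087 higher and 858 lower. After each array was centred on its median, Man1a overlapped and the other 3 genes did not. The arrays on each side hold different treatments and are not replicates.

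**Figure D2:**
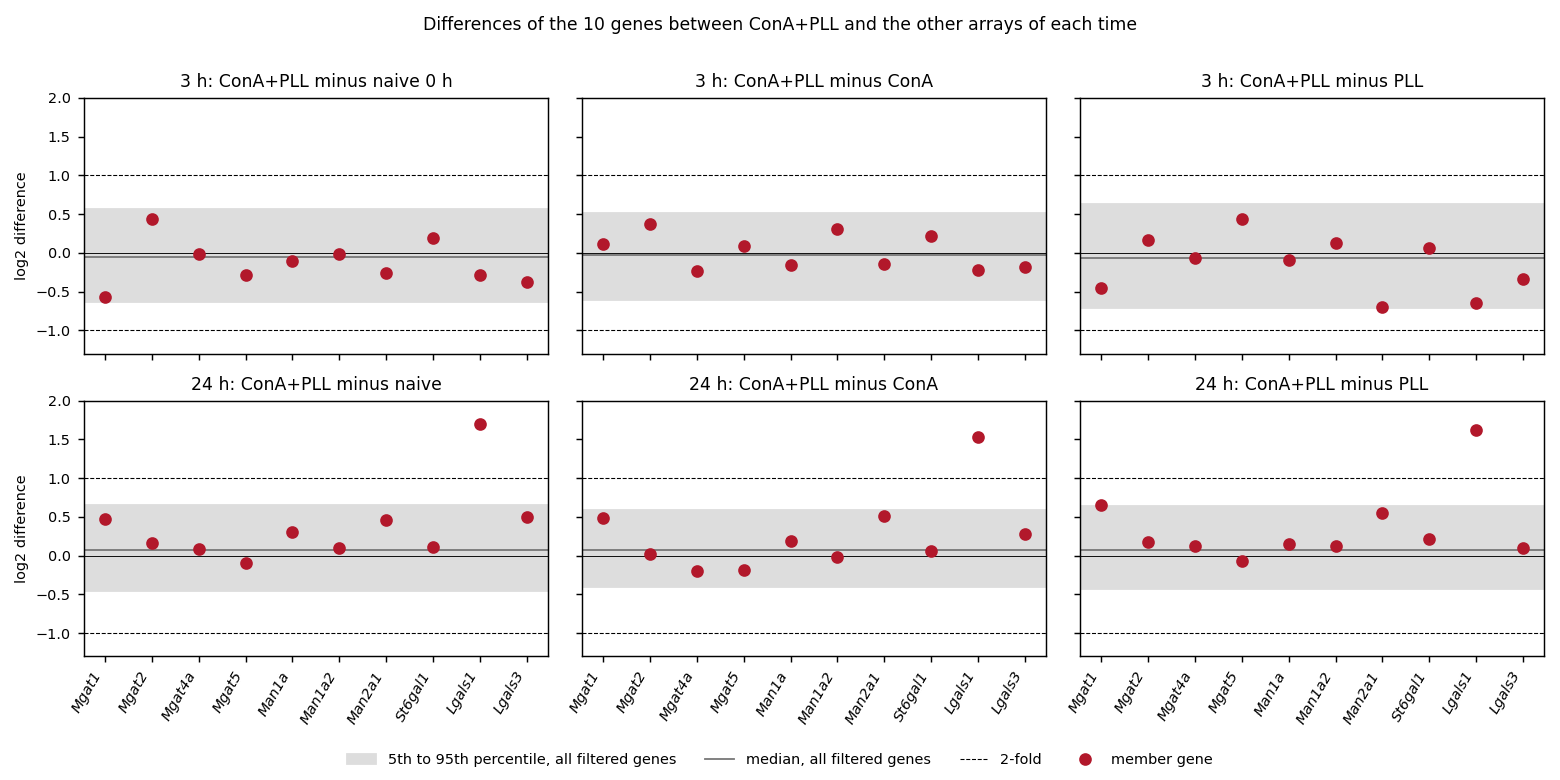
Log2 difference (y axis) of the 10 genes (x axis) between ConA+PLL and the other arrays of each time; each point is 1 gene, the grey band is the 5th to 95th percentile of the 13428 genes, and dashed lines mark 2-fold. Lgals1 is past 2-fold in the 3 comparisons of 24 h, at 1.70, 1.53 and 1.62, and no gene is past it at 3 h.

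The counts over the set follow from these values. At 24 h, 1 of the 10 genes, Lgals1, was 2-fold higher in ConA+PLL than in naive cells, where 1.56% of all genes were called. It was also the 1 gene called against ConA cells (1.22% of all genes) and against PLL cells (1.53%). At 1.5-fold the count against naive cells was again 1 (9.27% of genes) and that against ConA cells 1 (7.14%), while Mgat1 joined Lgals1 against PLL cells (8.79%). The median difference of the 10 genes was 0.23 against naive cells and 0.12 against ConA cells, where that of all genes was 0.08 in both. No member was called between ConA and naive cells, at 2-fold (0.261% of genes) or 1.5-fold (3.42%), nor between PLL and naive cells (0.156% and 1.96%).

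At 3 h no member was 2-fold different in any comparison. Against naive 0 h cells, the shares of all genes called were 1.68% for ConA+PLL, 0.521% for ConA and 0.633% for PLL. Between ConA+PLL and ConA cells 1.20% of genes were called, and between ConA+PLL and PLL cells 2.85%. At 1.5-fold, the count was 0 for ConA+PLL against naive cells (11.0% of genes), 1 for ConA (Mgat1, lower, 5.03%) and 1 for PLL (Mgat5, lower, 6.37%). It was 0 for ConA+PLL against ConA cells (9.04%) and 2 against PLL cells, where Man2a1 and Lgals1 were lower (14.8%). For the difference that ConA made with the coating less that without it, 0 members passed 2-fold at 3 h (4.30% of genes) and 1, Lgals1, at 24 h (2.15%).

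Between 24 h and 3 h, more of the set differed in ConA+PLL cells. Lgals1 was 1.54 higher at 24 h, Man2a1 1.39 higher and Mgat1 1.03 higher, or 2.91-fold, 2.63-fold and 2.04-fold. These 3 calls stand beside 7.46% of all genes, and the 3 h level of Mgat1 was close to background. The whole distribution was shifted in that comparison, with a median over all genes of 0.15 as deposited and of -0.15 after each array was centred, and the Mgat1 difference was then 0.73 and no longer 2-fold. At 1.5-fold, St6gal1 (higher) and Mgat5 (lower) made it 5 of 10, where 22.8% of genes were called. The other pairs had no member past 2-fold: naive cells at 24 h against 0 h (3.27% of genes), ConA cells (4.55%) and PLL cells (2.05%) at 24 h against 3 h. At 1.5-fold, Man2a1 and St6gal1 were higher and Mgat5 was lower in naive cells (15.0%). In ConA cells Mgat1, Man2a1 and St6gal1 were higher (17.5%), and in PLL cells Lgals1 was lower (11.5%).

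Over the 8 arrays, 4 members spanned at least 1 log2 unit: Lgals1 1.70, Man2a1 1.39, Mgat1 1.14 and Mgat5 1.04. Of all genes 19.4% did so, with a median range of 0.67. For each of the 4, the genes with the closest course were found among 2275 named genes that also spanned at least 1, by the root mean square of the differences over the 8 arrays after each gene was centred on its mean. Closest to Lgals1 were Prim1 (0.145), a primase subunit, Kif11 (0.179), a mitotic kinesin that is also among the 9 genes of dividing cells, and Dtl (0.180), a factor of ubiquitin ligation in S phase. Prim1 was at 6.11 in ConA+PLL and 4.96 in ConA cells, against 4.55 in naive cells, at 24 h. Closest to Man2a1 were Cyb5a (0.0664), a cytochrome b5, Hacl1 (0.0806), a peroxisomal lyase, and Uba7 (0.0943), which activates ISG15. Closest to Mgat1 were Nipsnap1 (0.0972), Tdp1 (0.105), a DNA repair phosphodiesterase, and Mpst (0.105), a sulfurtransferase. Closest to Mgat5 were Acvr2a (0.0971), an activin receptor, Arhgap31 (0.102) and Ssh2 (0.105), a cofilin phosphatase. Acvr2a was at 4.73 in naive 24 h cells, against 5.90 in naive 0 h cells. The distances to Lgals1 were larger than those to the other 3 genes. Kif11 was below background on 5 arrays. Dtl lay between 2.56 and 3.15 on 7 arrays and passed the filter through the ConA+PLL array of 24 h alone, at 4.54.

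**Figure D3:**
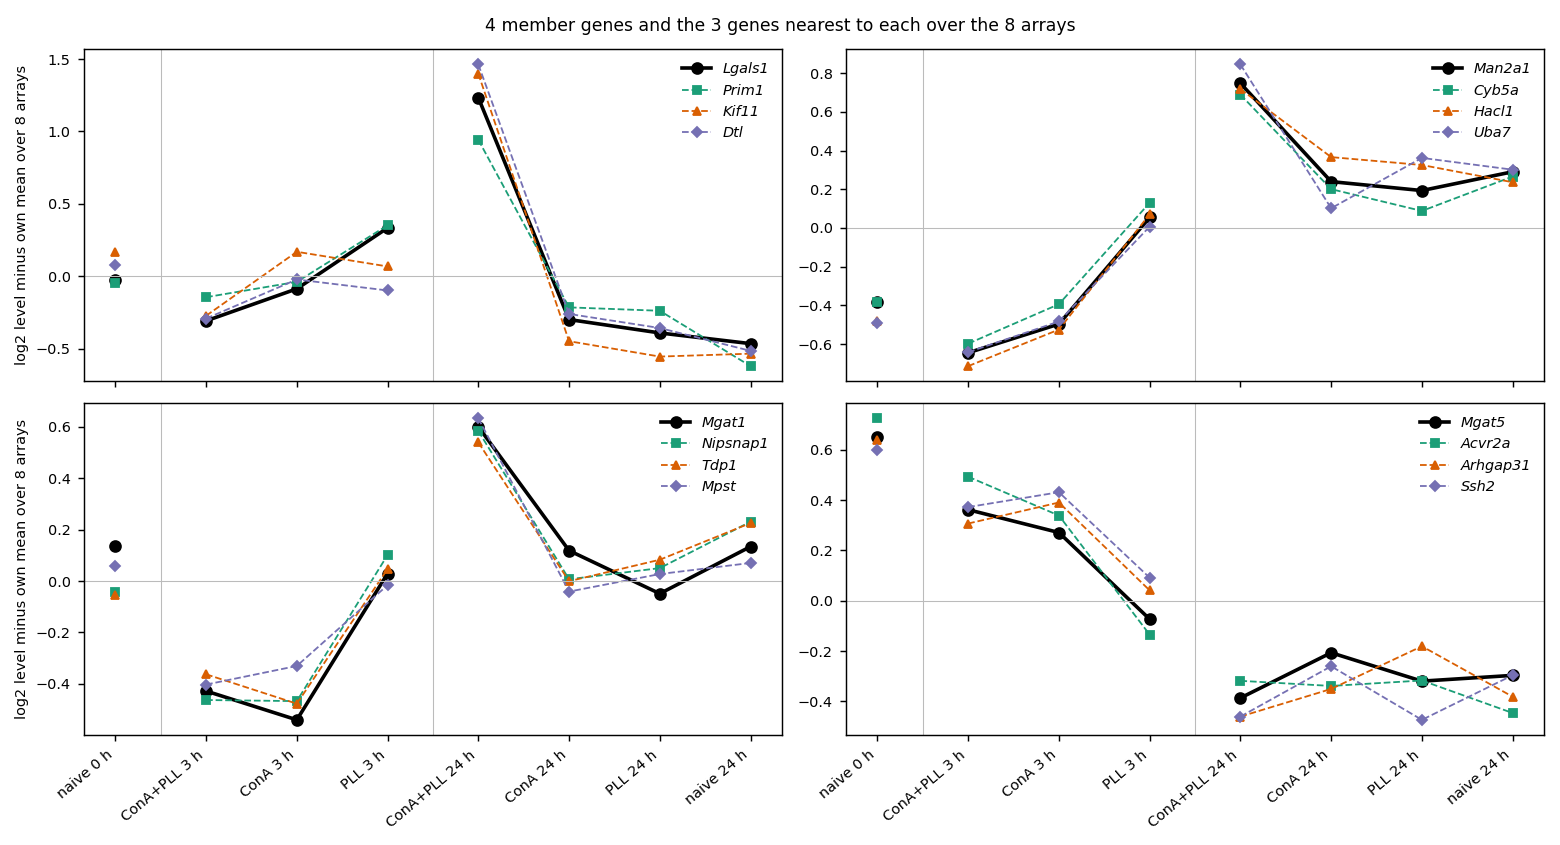
Log2 level less the gene's own mean over the 8 arrays (y axis) for Lgals1, Man2a1, Mgat1 and Mgat5 (black) and the 3 genes nearest to each (colours), by array (x axis); lines join arrays of the same time only. Prim1, Kif11 and Dtl are drawn with their highest point at the ConA+PLL array of 24 h, like Lgals1, but Kif11 on 5 arrays and Dtl on 7 are below background, and the 3 genes nearest to Mgat5 share its low 24 h arrays.

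Genes around these 10 in the pathway were described from lists. No gene of the 8 lists was 2-fold different between ConA+PLL and ConA cells at 3 h or 24 h, or between ConA+PLL and naive or PLL cells at 24 h. At 3 h some were, against the other arrays. Between ConA+PLL and naive 0 h cells, 1.68% of all genes were called. There, 2 of 15 surface glycoprotein genes and 1 of 33 assembly genes were higher, and 1 of 15 O-glycan genes and 1 of 10 breakdown genes were lower. Between ConA+PLL and PLL cells, 2.85% of all genes were called. Of the lists, 2 of 15 surface glycoprotein genes and 1 of 13 Golgi genes were higher, and 2 of 15 O-glycan genes and 1 of 10 breakdown genes were lower. At 24 h, medians are given against a median over all genes of 0.08, which was -0.05 for ConA+PLL against ConA cells after each array was centred. Of 33 genes for assembly and transfer of the oligosaccharide, 27 were above 0 between ConA+PLL and ConA cells, with a median of 0.19, and 21 were above 0 after centring. Rpn1, a subunit of oligosaccharyltransferase, was at 7.08 in ConA+PLL cells, against 6.57 in ConA cells. Dhdds, which makes the dolichol carrier, was at 6.57 in ConA+PLL cells, against 5.64 in naive 24 h cells. Alg6, a glucosyltransferase, differed most from ConA cells (0.82) but was under the background level on both arrays.

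Trimming and folding in the endoplasmic reticulum come next in the path. Of 13 such genes, 12 were above 0 between ConA+PLL and ConA cells at 24 h, with a median of 0.25, and 9 after centring. Mogs, the glucosidase that removes the outermost glucose, was at 5.82 in ConA+PLL cells, against 5.14 in ConA cells. Calr, the lectin chaperone calreticulin, was at 9.50 in ConA+PLL cells, against 8.83 in ConA cells and 8.68 in naive cells. Prkcsh, a chain of glucosidase II, was at 7.55 in ConA+PLL cells, against 7.07 in ConA cells and 6.77 in naive cells.

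The other Golgi enzymes of N-glycans were mostly above ConA cells in ConA+PLL cells at 3 h. Of 13 genes, 11 were above 0 between ConA+PLL and ConA cells at 3 h, also after centring and after quantile normalization, with a median of 0.34 where that of all genes was -0.02. Among those 11, Man1c1, Mgat3, Mgat4b, B4galt2 and St3gal3 were below background in ConA cells at 3 h. Against the other arrays the median was smaller, 0.10 against naive 0 h cells and 0.10 against PLL cells. The 10 members of the main set had a median of -0.03 between ConA+PLL and ConA cells at 3 h, 5 above 0 and 5 below. Mgat3, which adds the bisecting residue, was at 4.19 in ConA+PLL cells, against 3.57 in ConA cells, and Man1c1, another mannosidase, was at 4.05 in ConA+PLL cells, against 3.37 in ConA cells. Of these 4 values, the 4.19 of Mgat3 alone was above background. Man2a2, the close relative of Man2a1, ran the other way, at 6.39 in ConA+PLL cells, against 6.96 in ConA cells. At 24 h the median was 0.13 (0.00 after centring), and St3gal4, a sialyltransferase, was at 6.14 in ConA+PLL cells, against 5.50 in ConA cells.

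Enzymes and transporters of nucleotide sugars supply the donors. Of 20 genes, 18 were above 0 between ConA+PLL and ConA cells at 24 h, with a median of 0.22, and 12 after centring. Pmm1, a phosphomannomutase, was at 5.34 in ConA+PLL cells, against 4.62 in ConA cells. At 3 h the largest difference was that of Gfpt1, the entry enzyme of the hexosamine pathway, at 6.82 in ConA+PLL cells, against 6.03 in ConA cells.

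Among the other galectins and the galectin-binding protein, 4 of 8 measured genes passed the filter, and all 4 were above 0 between ConA+PLL and ConA cells at 24 h, with a median of 0.47 (0.34 after centring, with 3 of 4 above 0). Lgals3bp, a secreted ligand of galectin-3, was at 7.56 in ConA+PLL cells, 6.88 in ConA cells and 6.78 in PLL cells, against 6.81 in naive cells. Lgals9, galectin-9, was at 8.73 in ConA+PLL cells, 8.22 in ConA cells and 8.11 in PLL cells, against 8.13 in naive cells. Lgals8, galectin-8, was at 7.58 in ConA+PLL cells, 7.14 in ConA cells and 7.17 in PLL cells, against 7.09 in naive cells. As with Lgals1, the ConA+PLL array was the highest of the 8 for these 3 genes, but the differences from ConA cells, of 0.68, 0.51 and 0.44, stayed under 2-fold. Lgals4, the other gene that passed, was near background throughout.

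Mucin-type O-glycan enzymes, which build the other common class of protein glycans, did not share the upward lean of 24 h. Of 15 genes, 6 were above 0 and 9 below between ConA+PLL and ConA cells, with a median of -0.10 that was below 0 under each scaling. At 3 h Galnt4, which starts O-glycans, was at 5.0 in ConA+PLL cells, against 5.95 in ConA cells, the largest difference of any listed gene there, at -0.95. Genes of glycan breakdown in lysosomes and cytosol had a median of -0.15 at 3 h, with Manba, a mannosidase, at 4.39 in ConA+PLL cells, against 5.25 in ConA cells, and Hexa, a hexosaminidase subunit, at 5.60 in ConA+PLL cells, against 6.24 in ConA cells. At 24 h 9 of the 10 breakdown genes were above 0 as deposited, with a median of 0.22. The median of all genes there was 0.08 as deposited and -0.05 after centring. Of the 9 genes, Man2c1 (0.06) and Ngly1 (0.11) lay closest to 0. All 10 breakdown genes were higher in naive cells at 24 h than at 0 h, also after centring and quantile normalization, with a median of 0.46.

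The glycoproteins that carry these glycans on the T cell surface were followed through 15 genes. All 15 were above 0 between ConA+PLL and naive cells at 24 h under each scaling, with a median of 0.36. Between ConA+PLL and ConA cells all 15 were above 0 as deposited and 11 after centring, with a median of 0.22. Itgal, the alpha chain of the integrin LFA-1, was at 9.05 in ConA+PLL cells, against 8.39 in ConA cells and 8.08 in naive cells. Cd5, a receptor that dampens T cell receptor signals, had the largest difference of the list at 3 h, at 10.44 in ConA+PLL cells, against 9.55 in ConA cells.

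**Figure D4:**
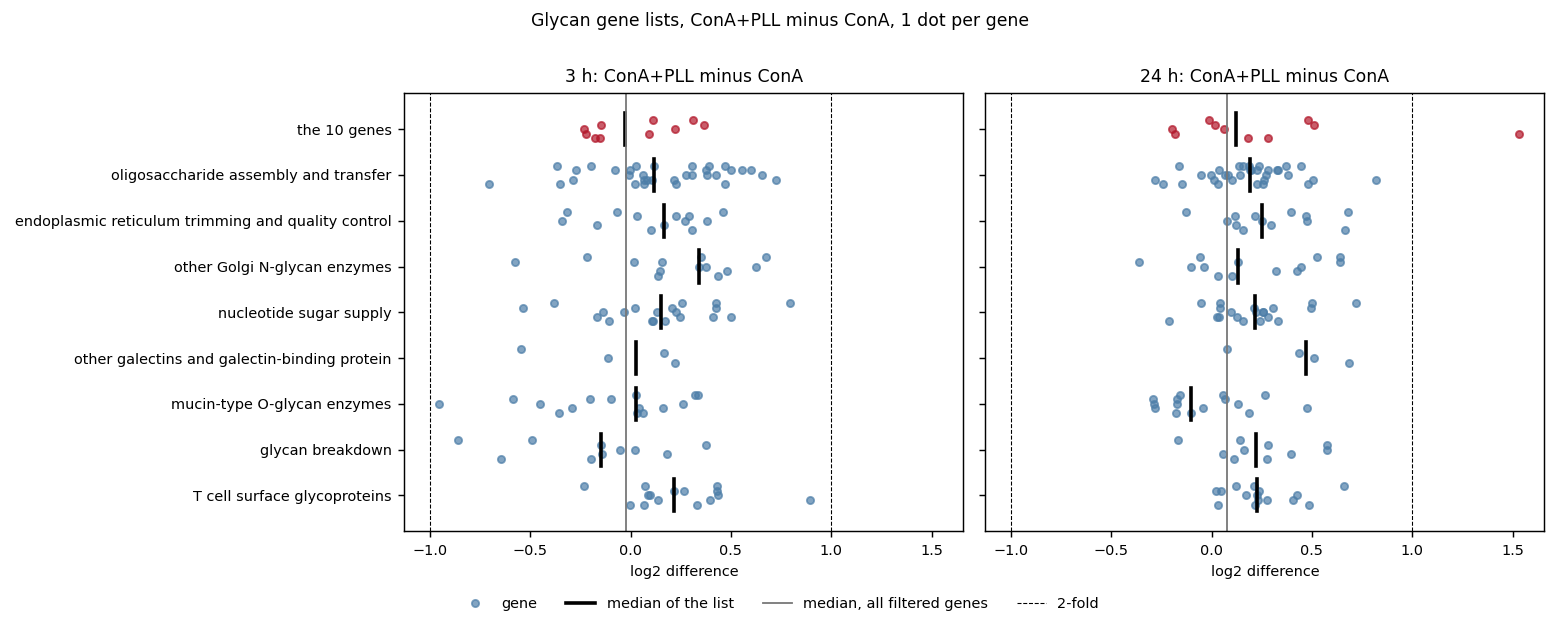
Log2 difference between ConA+PLL and ConA cells (x axis) at 3 h (left) and 24 h (right) for the 10 genes (red) and the 8 lists (blue), 1 dot per gene that passed the filter; thick bars are list medians, the grey line is the median of all 13428 genes and dashed lines mark 2-fold. Lgals1 at 1.53 is the single dot past 2-fold. The bar of the other Golgi enzymes is at 0.34 at 3 h, where several of them were below background in ConA cells, and that of the O-glycan enzymes is at -0.10 at 24 h.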

How the data were processed

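As the study's methods state, labelled cDNA was hybridised by the authors to Affymetrix Mouse Gene 2.0 ST arrays and the signals were normalized by RMA. The deposited values, 1 per probe set and array with 0 missing, were read as log2 levels, which their range fits, since the table does not state the base. Of the arrays normalized together, the build of the genome and the version of the software nothing is given in the sources used here. Of 41345 probe sets, 23521 name 1 gene symbol, 1820 several and 16004 none. Of those with 1 symbol, 23328 had an Entrez ID in RefSeq GRCm38.p6 and 0 symbols changed. Of 22180 genes, 1082 had more than 1 probe set, and the probe set with the highest mean was kept.

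Differences were taken between single arrays with pandas 2.3.3 and NumPy 2.4.6 (Python 3.11.15) over the 13428 genes whose highest level reached the table's median, with no further scaling. The number of arrays, 1 for each group, limits the precision. The code was tested on simulated data. Alternatives were quantile normalization, centring, the mean of probe sets, 2 other filters, a 1.5-fold threshold and another control array. A stricter filter at the background level and PLL cells of 3 h as the control of ConA cells were added after the data had been seen.

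All 10 members are named in each group. Of each other glycan list, the genes eligible for naming were the 3 with the largest differences between ConA+PLL and ConA cells at each time and between ConA+PLL and naive cells at 24 h. For members that span at least 1 log2 unit, the 3 nearest genes are named, without predicted genes, clone names and small RNAs. The members and lists were chosen with earlier results of these data known. Promoter windows are from RefSeq.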

Additional observations from a re-analysis of the deposited data

Results flagged for a closer look

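For 8 pairs of gene and time, ConA moved the level one way on the coating and the other way without it, whatever the size, and none of these differences was tested. With 1 array in each group, opposite signs were frequent: 5 of the 10 members had them at 3 h, against 46.3% of the 13428 genes, and 3 of the 10 at 24 h, against 41.4% of the genes. The clearest at 3 h was Mgat5, with 0.43 for ConA on PLL and -0.38 for ConA without it, 0.82 apart. Man1a2 had 0.12 with the coating and -0.32 without it, 0.45 apart. Mgat4a had -0.07 with it and 0.22 without it, a difference of -0.29. Man1a had -0.09 with it and 0.04 without it, a difference of -0.13. St6gal1 had 0.07 with it and -0.03 without it, a difference of 0.10. At 3 h the value without the coating is taken from the naive 0 h array, so it also holds 3 h of culture. At 24 h Mgat1 had 0.65 with the coating and -0.02 without it, 0.67 apart, and Man2a1 had 0.55 with it and -0.05 without it, 0.61 apart. Mgat5 at 24 h had -0.07 with it and 0.09 without it, a difference of -0.16.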

How the results depend on the processing

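Across the alternatives, 1070 differences of the 10 genes were recomputed. None that was called changed sign, 979 kept their sign and their side of the threshold, 67 that were not called changed sign, 22 passed a threshold they had not passed, and 2 no longer passed it. Both of the last were Mgat1 between 24 h and 3 h in ConA+PLL cells, at 0.89 after quantile normalization and 0.73 after centring. The 3 differences of Lgals1 at 24 h lay between 1.26 and 1.70 and stayed past 2-fold under all alternatives run. With the naive 0 h array in place of the naive 24 h array, ConA+PLL cells of 24 h had 3 genes called in place of 1 (5.18% of all genes), since Man2a1 was 1.13 higher and Mgat5 fell by 1.04. Centring brought Mgat5 past 2-fold between naive cells of 24 h and 0 h, at -1.04, which made the count 1 in place of 0 (3.23% of genes), and between 24 h and 3 h in ConA+PLL cells, at -1.05.

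At 1.5-fold in place of 2-fold, the counts of members were 1 for ConA and 1 for PLL against naive cells at 3 h, 2 for ConA+PLL against PLL cells at 3 h and 2 at 24 h. Between times they were 3 in naive cells, 3 in ConA cells, 1 in PLL cells and 5 in ConA+PLL cells. For the ConA difference with less without the coating they were 2 at 3 h (19.6% of genes) and 3 at 24 h (12.4%). No paired analysis was possible because each group has 1 array and the labels carry no replicate numbers. Leaving out an array was not possible for the same reason. Lgals3 was near background, below it on 1 array, which limits what its differences show.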
